A study of Mus musculus with 20 samples.

Results

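The transcripts of the origin recognition complex (ORC), Cdc45 and the GINS complex were followed in RNA-seq of p19/Nras cells, which derive from a mouse liver tumour raised by Nras on a p19/Arf-null background. The members were taken by gene symbol: Orc1, Orc2, Orc3, Orc4, Orc6, Cdc45, Gins1, Gins2, Gins3 and Gins4. All 10 were present in the count table of the Myc experiment, among 13107 genes, and in that of the HU experiment, among 11210 genes. In the Myc experiment, Trim33-WT cells with a control guide (sgCtrl) and the lines Trim33-KO1 and Trim33-KO2, made with a CRISPR guide against Trim33 (sgTrim33), carried the empty vector pWZL (Ctrl) or a Myc vector, which gave 6 groups of 2 libraries. In the HU experiment, sgCtrl cells (WT) and sgTrim33 cells (KO) received vehicle (untreated) or 1 mM hydroxyurea (HU) for 4 h, which gave 4 groups of 2 libraries. HU depletes the nucleotide pool and so stalls replication forks. All groups, controls included, share the p19/Arf loss and the Nras transgene, and every library comes from the same tumour line. The labels do not say which knockout line the HU experiment used, nor whether a line is 1 clone or whether the replicates are separate cultures, so the p-values measure only the spread between these libraries, which may be technical.

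ORC marks the sites where DNA replication can begin: it binds DNA and, with Cdc6 and Cdt1, loads the Mcm helicase on chromatin in G1. Cdc45 and the GINS complex join the loaded Mcm ring at the onset of S phase and turn it into the active helicase (the CMG complex) that travels with the fork. Several of these genes are known E2F targets whose mRNA rises as cells pass from G1 into S phase.

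Totals per library ran from 14753177 to 17949430 counts in the Myc experiment, against 2315327 to 3082202 for the HU libraries. Levels are given as CPM, counts divided by the library total after TMM scaling and multiplied by 1000000. Trim33 mRNA fell in KO1 Ctrl (log2 fold change −0.99 ± 0.0692 SE, edgeR, adjusted p = 3.5e-09) and in KO2 Ctrl (−0.31 ± 0.0676, edgeR, adjusted p = 0.000966). Among the Myc-vector libraries it went against the label in KO1 Myc, with 185 and 193 CPM against 131 and 155 in the pair labelled WT Myc. The KO2 Myc pair, at 124 and 125 CPM, lay below WT Myc but did not pass the test (−0.20 ± 0.0695, edgeR, adjusted p = 0.0263). The Myc transcript, at 433 and 439 CPM in WT Ctrl, was 456 and 458 under the WT Myc label and did not pass the test (0.07 ± 0.0548, edgeR, adjusted p = 0.31). The authors assessed Trim33 in the lines, and Myc in cells with either vector, by immunoblot. A transcript count cannot settle the genotype of a library, nor tell endogenous Myc from Myc of the vector. The Myc-vector libraries are therefore named by their labels throughout, and every direction drawn from them carries this reserve. In the HU experiment Trim33 fell in KO (−1.49 ± 0.156 untreated, edgeR, adjusted p = 3.48e-11). The cells are labelled as liver carcinoma: of 14 hepatocyte markers 2 were in the table of the Myc experiment (Afp and Fah) and 3 in that of the HU experiment, while the keratins Krt8 and Krt18 summed to 1861 to 3891 CPM, 4 of 5 mesenchymal markers were present, endothelial markers were absent (0 of 4), and of 4 leukocyte markers only Cd68 was listed.

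The genes lie on 5 chromosomes, placed here on mm9, the authors' build, with the GENCODE vM1 annotation. Orc1 spans chr4:108252028-108288633, Orc2 chr1:58519615-58561953, Orc3 chr4:34518045-34562193, Orc4 chr2:48758344-48805797 and Orc6 chr8:87823531-87832177. Cdc45 spans chr16:18780540-18812080. Gins1 spans chr2:150731136-150757016, and the other GINS genes are on chromosome 8, Gins2 at chr8:123102533-123113204, Gins3 at chr8:98157459-98168959 and Gins4 at chr8:24337082-24348140. Some share bases with a gene on the opposite strand: Orc1 shares 23604 bases with the lincRNA Gm12743, Orc2 19046 with Nif3l1, Gins2 10672 with Gm20388 and 2758 with Gse1, Orc4 768 with Mbd5 and 446 with Acvr2a, and Cdc45 209 with Ufd1l. Whether counting used strand is not given in the sources used here, and without it reads of such pairs cannot be told apart.

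Promoter windows were found in RefSeq (table of build GRCm38.p6) for 7 of the 10 genes, and each window had 1 exact match in mm9. They are shown because E2F and Myc bind known short words. The part of such words in the members' changes was not tested. Searched on both strands were 4 E2F words (TTTCCCGC, TTTGGCGC, TTTCGCGC and TTTGCCGC), the cell cycle element CHR (TTTGAA) and the canonical E-box (CACGTG), which do not overlap one another in these windows. Below are the 250 bases before the RefSeq start of 5 windows, 5′ to 3′ on the gene's strand with mm9 coordinates and the matches in capitals.
Orc1 (chr4:108251809-108252058, + strand): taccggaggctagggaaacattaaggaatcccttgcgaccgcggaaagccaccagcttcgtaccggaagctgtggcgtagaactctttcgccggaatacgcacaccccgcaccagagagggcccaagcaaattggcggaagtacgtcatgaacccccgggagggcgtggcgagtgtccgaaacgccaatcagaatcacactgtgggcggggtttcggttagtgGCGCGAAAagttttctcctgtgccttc
Orc3 (chr4:34562192-34562441, - strand): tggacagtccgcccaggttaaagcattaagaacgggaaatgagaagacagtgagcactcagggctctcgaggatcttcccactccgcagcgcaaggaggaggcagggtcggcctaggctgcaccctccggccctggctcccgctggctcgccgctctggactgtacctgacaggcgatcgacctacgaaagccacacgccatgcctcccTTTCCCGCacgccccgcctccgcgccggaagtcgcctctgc
Orc4 (chr2:48804788-48805037, - strand): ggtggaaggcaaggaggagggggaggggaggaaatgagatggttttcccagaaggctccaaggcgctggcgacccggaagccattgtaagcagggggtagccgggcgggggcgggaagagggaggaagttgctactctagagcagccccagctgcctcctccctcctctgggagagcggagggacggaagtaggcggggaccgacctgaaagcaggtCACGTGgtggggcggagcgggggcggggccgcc
Cdc45 (chr16:18812066-18812315, - strand): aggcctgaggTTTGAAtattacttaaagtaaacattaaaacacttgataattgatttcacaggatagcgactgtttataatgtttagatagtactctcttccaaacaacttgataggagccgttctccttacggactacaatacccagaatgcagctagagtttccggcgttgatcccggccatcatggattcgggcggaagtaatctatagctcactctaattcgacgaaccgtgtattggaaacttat
Gins3 (chr8:98157209-98157458, + strand): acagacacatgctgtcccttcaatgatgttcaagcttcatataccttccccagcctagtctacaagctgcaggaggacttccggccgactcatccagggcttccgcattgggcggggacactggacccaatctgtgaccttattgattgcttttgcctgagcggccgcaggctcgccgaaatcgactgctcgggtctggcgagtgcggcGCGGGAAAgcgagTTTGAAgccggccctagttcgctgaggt
An E2F word stood at −27 in Orc1 and at −41 in Gins3, in both read on the opposite strand, and at −41 in Orc3, counted from the base before the start as −1. Orc1's word begins 4 bases inside the GENCODE gene model, whose start lies upstream of RefSeq's. In Gins3 the E2F word is followed by a CHR at −28, and Cdc45 held a CHR at −240 and another at 11 after the start. The canonical E-box was found in 1 of 3 Orc4 windows, at −33, which lies 977 bases inside the GENCODE gene model. Of 32851 promoters in the table, 2.26% held an E2F word, 17.9% a CHR and 7.15% the E-box. The windows of Orc2 and Orc6 held none of these letters, which says nothing about the factors, and Gins1, Gins2 and Gins4 had no window in the table. A match is a run of letters, not a shown binding site.

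To set levels beside each other, CPM was divided by the length of the longest GENCODE transcript in kilobases (kb). In WT Ctrl, Orc2 was the most abundant at 42.0 ± 0.593 CPM per kb (SD, n = 2), then Orc6 at 33.7 ± 0.875, Gins4 at 27.9 ± 0.147, Orc4 at 25.6 ± 0.644, Orc3 at 19.1 ± 0.302, Gins1 at 18.9 ± 0.667 and Cdc45 at 14.7 ± 0.0449. Gins2 at 4.26 ± 0.452, Gins3 at 3.98 ± 0.498 and Orc1 at 1.59 ± 0.0611 were the lowest. The libraries of neighbours overlapped only for Orc3 with Gins1 and for Gins2 with Gins3, and the rest of the order held between the library ranges. Orc1 was thus the scarcest ORC transcript in WT Ctrl, and it was also the lowest of the 10 in each of the other 9 groups.

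The first comparison asks how loss of Trim33 altered these transcripts in cells with the Ctrl vector. Orc1, Cdc45, Gins2 and Gins3 rose in both knockout lines, between 1.55-fold and 2.48-fold, while Orc2 and Orc4 fell in both. Gins4 passed the test in neither line, and Orc3, Orc6 and Gins1 passed it in KO2. In KO1, 6 of 10 members were called at an adjusted p under 0.01 (4 higher, 2 lower), where 52.2% of all genes were called (25.5% higher, 26.7% lower), so this share is close to the background. In KO2, 9 of 10 were called (6 higher, 3 lower), against 49.9% of all genes (23.3% higher, 26.6% lower). Both lines were set against the same 2 WT Ctrl libraries, so their calls are not independent of each other. Among all genes tested, 2369 were called higher and 2722 lower in both lines. In a culture, fewer cells in a given phase and less RNA per cell cannot be told apart.

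Within ORC the subunits moved in opposite directions. Orc1, the subunit whose level changes through the cell cycle, was 6.71 and 6.36 CPM in WT Ctrl. It was 12.4 and 12.7 in KO1 Ctrl, and reached 17.4 and 15.0 in KO2 Ctrl. The groups did not overlap, and Orc1 rose by 0.95 ± 0.135 on the log2 scale in KO1 (edgeR, adjusted p = 1.29e-05). In KO2 it rose by 1.31 ± 0.129 (edgeR, adjusted p = 2.54e-07). Orc4, an ATPase-fold subunit of the core ring, went the other way, from 106 and 102 CPM in WT Ctrl to 59.3 and 54.7 in KO1 and 63.4 and 62.3 in KO2. It fell by 0.87 ± 0.062 in KO1 (edgeR, adjusted p = 4.49e-09). In KO2 it fell by 0.73 ± 0.0614 (edgeR, adjusted p = 4.14e-08). Orc2, another core subunit, was 148 and 151 CPM in WT Ctrl against 104 and 107 in KO1 and 102 and 107 in KO2, a fall of 0.51 in both lines (SE 0.055 each; edgeR, adjusted p = 6.42e-07 and 6.47e-07).

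The remaining ORC subunits moved less. Orc3, the partner of Orc2 in the core, was 43.5 and 44.4 CPM in WT Ctrl, 39.5 and 37.9 in KO1 and 35.7 and 37.7 in KO2. Its difference was −0.18 ± 0.0713 in KO1, short of the threshold (edgeR, adjusted p = 0.0348), and −0.26 ± 0.0716 in KO2 (edgeR, adjusted p = 0.00493). The KO2 call of Orc3 was lost without any 1 of the 4 libraries (adjusted p 0.0132 to 0.0522) and with DESeq2 (0.0251). Orc6, the most loosely bound subunit, was 56.7 and 54.7 CPM in WT Ctrl, 51.7 and 56.5 in KO1 and 66.5 and 67.4 in KO2. KO1 overlapped WT Ctrl (−0.04, 95% interval −0.18 to 0.10), whereas Orc6 rose by 0.27 ± 0.0662 in KO2 (edgeR, adjusted p = 0.00246), a call lost without WT Ctrl replicate 2 (adjusted p = 0.0274), KO2 Ctrl replicate 1 (0.0139) or KO2 Ctrl replicate 2 (0.0205). Orc5, an ORC subunit outside the 10 members, fell in KO1 by 0.53 ± 0.0741 (edgeR, adjusted p = 1.08e-05) and stood at −0.18 in KO2 (adjusted p = 0.0401).

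Cdc45, the helicase cofactor, rose by nearly the same amount in the KO lines. It was 31.6 and 31.4 CPM in WT Ctrl, 55.4 and 55.3 in KO1, and in KO2 it was 57.9 and 55.9. The rise was 0.81 ± 0.0717 for KO1 (edgeR, adjusted p = 5.79e-08) against 0.85 ± 0.0715 for KO2 (edgeR, adjusted p = 3.71e-08), and the difference between the lines was 0.04 with a 95% interval from −0.10 to 0.18.

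The 4 GINS subunits, which assemble in equal amounts in the complex, did not move together. Gins2 was 17.9 and 15.4 CPM in WT Ctrl, 26.4 and 27.1 in KO1 and 36.2 and 38.1 in KO2, a rise of 0.69 ± 0.0924 (edgeR, adjusted p = 7.14e-06) and of 1.16 ± 0.0889 (edgeR, adjusted p = 1.31e-08). Gins3 was 8.76 and 10.5 CPM in WT Ctrl, 14.0 and 15.7 in KO1 and 16 and 17.9 in KO2, a rise of 0.63 ± 0.121 (edgeR, adjusted p = 0.000267) and of 0.82 ± 0.118 (edgeR, adjusted p = 1.79e-05). For both genes the KO libraries lay above the WT Ctrl libraries. Gins1 was 21.1 and 20.03 CPM in WT Ctrl and 20.4 and 21.1 in KO1, which overlap (0.01, 95% interval −0.18 to 0.21), but 31.4 and 28.2 in KO2, a rise of 0.53 ± 0.0864 (edgeR, adjusted p = 5.37e-05). Gins4 was 38.2 and 37.9 CPM in WT Ctrl, 40.6 and 39.4 in KO1 and 43.8 and 41.2 in KO2. Its differences of 0.07 (interval −0.10 to 0.24) and 0.16 (−0.02 to 0.33) did not pass the test.

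**Figure D1:**
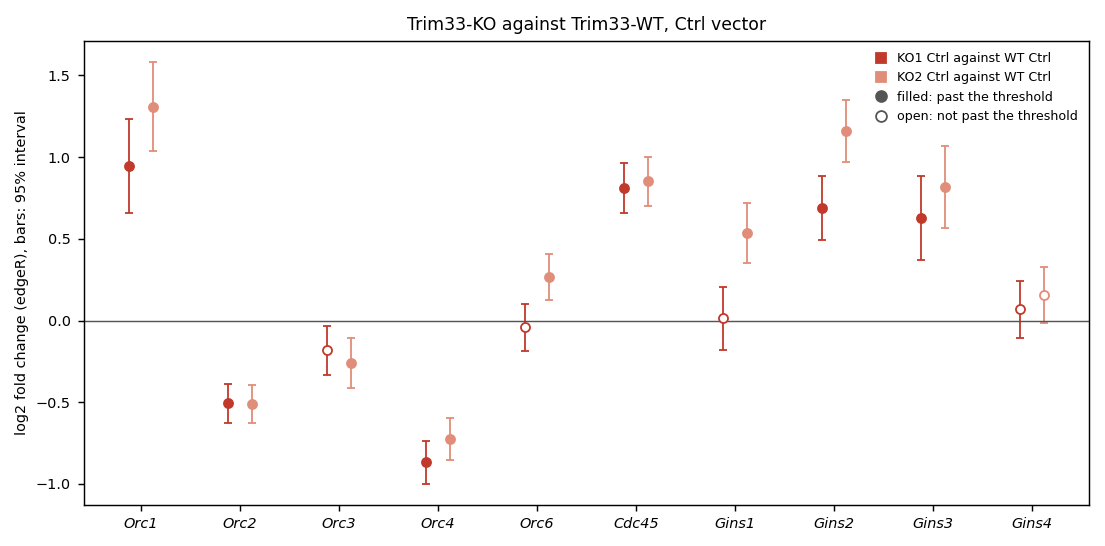
Log2 fold change of each gene in KO1 Ctrl and KO2 Ctrl against WT Ctrl (vertical axis, edgeR), with 95% intervals, 2 libraries per group; filled points passed an adjusted p under 0.01. Orc1, Cdc45, Gins2 and Gins3 are filled above 0 in both lines, Orc2 and Orc4 are filled below 0 in both, and Gins4 is open in both.

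The lines were then set against each other directly. Of the 10 members, 3 differed between KO2 Ctrl and KO1 Ctrl, against 18.3% of all genes (8.33% higher, 9.96% lower), and all were higher in KO2. Gins1 differed by 0.52 ± 0.0856 (edgeR, adjusted p = 0.000212), Gins2 by 0.47 ± 0.0825 (edgeR, adjusted p = 0.000363) and Orc6 by 0.31 ± 0.0661 (edgeR, adjusted p = 0.00216). The Orc6 call was lost without KO1 Ctrl replicate 1 (adjusted p = 0.0506), KO2 Ctrl replicate 1 (0.0165) or KO2 Ctrl replicate 2 (0.0235). Orc1 stood at 0.36 ± 0.114 (edgeR, adjusted p = 0.0256), which was called with the groups alone in the fit (0.37, adjusted p = 0.00689), and Orc3 at −0.08 (95% interval −0.23 to 0.08). Trim33 itself was higher in KO2 than in KO1 by 0.68 ± 0.0693 (edgeR, adjusted p = 1.41e-06), and its part in these differences was not tested.

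Other genes of origin licensing and firing moved beside the members. Of 32 such genes 27 were called in KO1 (20 higher, 7 lower, median log2 fold change 0.57), and in KO2 also 27 (23 higher, 4 lower, median 0.69), where the median of all genes was −0.0036 and −0.011. Of all genes, 52.2% were called in KO1 (25.5% higher, 26.7% lower) and 49.9% in KO2 (23.3% higher, 26.6% lower). The median over the 10 members was 0.04 in KO1 and 0.40 in KO2. In KO1, by lowest adjusted p, Mcm4, a subunit of the helicase ring, rose by 1.12 ± 0.081 with the fork protection gene Timeless at 0.96 and the S phase kinase Cdk2 at 0.91. In KO2 the leading genes were Ccne1 (cyclin E1) at 2.26, Mcm4 at 1.52 and the licensing inhibitor Gmnn at 1.25. E2f1, an activator of S phase genes, rose by 0.83 ± 0.0862 for KO1 against 1.22 ± 0.0841 for KO2 (edgeR, adjusted p = 4.02e-07 and 3.66e-09), while E2f4 mRNA stood at −0.07 and −0.06 (adjusted p = 0.368 and 0.501). Myc mRNA fell by 1.19 ± 0.0564 in KO1 and by 1.02 ± 0.0561 in KO2 (edgeR, adjusted p = 3.34e-11 and 2.52e-10). Mitosis genes moved in the same comparisons: of 18, 14 were higher and 2 lower in KO1, and 16 were higher and 0 lower in KO2. Their summed level was 2283 to 2379 CPM in WT Ctrl, while KO1 Ctrl had 3170 to 3381 and KO2 Ctrl 3940 to 3962. Cell type markers moved as well. Krt19 and Sox9, the 2 of 4 cholangiocyte markers in the table, fell in both lines (medians −2.42 and −1.88), and their sum was 596 to 603 CPM in WT Ctrl, 102 to 108 in KO1 Ctrl and 163 to 169 in KO2 Ctrl. Of the hepatocyte markers, the fetal liver gene Afp fell by 5.19 in KO1 and by 1.92 in KO2, while Fah rose by 1.54 and 0.81, and their sum was 41.6 to 47.0 CPM in WT Ctrl, 37.6 to 37.8 in KO1 Ctrl and 29.9 to 31.3 in KO2 Ctrl. Of 4 mesenchymal markers 3 were called in each line, all higher in KO1 and 1 higher and 2 lower in KO2. They ranged from 0.12 to 3.44 in KO1 and from −3.03 to 2.62 in KO2, with a sum of 2908 to 3099 CPM in WT Ctrl, 3830 to 3924 in KO1 Ctrl and 3199 to 3240 in KO2 Ctrl. The part of these markers, of Myc mRNA and of cell cycle position in the members' changes was not tested.

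The Myc vector was asked about next, first in the libraries labelled WT. Of 10 members, 8 passed the test against WT Ctrl (6 higher, 2 lower), where 44.3% of all genes did (21.6% higher, 22.7% lower). The rises covered Cdc45, 3 GINS subunits, Orc1 and Orc6, and the falls were Orc2 and Orc4. These values use the same WT Ctrl libraries as the knockout comparisons. The Trim33 mRNA in the libraries labelled WT Myc was lower than in WT Ctrl (−0.82 ± 0.0686, edgeR, adjusted p = 6.98e-08) and Myc mRNA was not detectably higher. The Myc count does not tell endogenous from vector transcript, so within these counts what sets the libraries apart is known only from their label. The WT Myc pair was also less alike than the other pairs of the Myc experiment: the squared difference between the 2 libraries averaged 11.5 times counting noise per gene, against 2.25 to 4.71 times in the other 5 groups. The fit shares its estimate of the spread over all groups, so p-values of comparisons that use this pair may be too small.

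Orc2 was 98.6 and 103 CPM in the libraries labelled WT Myc, against 148 and 151 in WT Ctrl, and fell by 0.57 ± 0.055 (edgeR, adjusted p = 3.34e-07). Orc4 was 67.6 and 69.9 CPM against 106 and 102, and fell by 0.60 ± 0.0607 (edgeR, adjusted p = 6.18e-07). Orc1, at 8.98 and 10.9 CPM, rose by 0.61 ± 0.139 (edgeR, adjusted p = 0.00144). That call was lost without WT Ctrl replicate 2 (adjusted p = 0.0183) or WT Myc replicate 2 (0.0221). Orc6, at 72.1 and 68.7 CPM, rose by 0.34 ± 0.0657 (edgeR, adjusted p = 0.000392), and Orc3, at 39.5 and 42.6 CPM, stood at −0.10 (95% interval −0.25 to 0.05).

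Cdc45 was 47.0 and 44.8 CPM in the libraries labelled WT Myc and rose by 0.54 ± 0.0725 (edgeR, adjusted p = 1.1e-05). Gins1 was 34.7 and 31.5 CPM, its highest level of the 6 groups, and rose by 0.69 ± 0.0849 (edgeR, adjusted p = 4.87e-06). Gins2, at 31.7 and 28.8 CPM, rose by 0.86 ± 0.0904 (edgeR, adjusted p = 8.46e-07), and Gins4, at 56.5 and 48.9 CPM, by 0.47 ± 0.08 (edgeR, adjusted p = 0.000124). Gins3, at 12.6 and 12.7 CPM, stood at 0.39 ± 0.123, short of the threshold (edgeR, adjusted p = 0.0123).

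In the knockout lines fewer members passed between Myc and Ctrl vector. In the libraries labelled KO1 Myc, 0 of 10 members passed against KO1 Ctrl by edgeR, where 36.1% of all genes did (17.9% higher, 18.2% lower); DESeq2 also gave 0, and 3 members were at an unadjusted p under 0.05. Orc2 stood nearest, at −0.19 ± 0.0559 (edgeR, adjusted p = 0.0104), and was called under RLE scaling, a mean of at least 5 CPM, the replicate block and a fit on these groups alone (adjusted p 0.00409 to 0.00944). The largest difference was Orc1 at −0.25 (95% interval −0.50 to 0.01), and Cdc45 stood at −0.04 (−0.18 to 0.10). Myc mRNA rose in the same comparison by 1.73 ± 0.0568 (edgeR, adjusted p = 1.2e-12), from 186 and 196 CPM to 621 and 646. Orc5 was called there, at 0.56 ± 0.0729 (edgeR, adjusted p = 9.53e-06).

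In the libraries labelled KO2 Myc, 4 members passed against KO2 Ctrl, and 3 of them fell. Of all genes 38.8% passed (20.2% higher, 18.6% lower), so the share of members is close to the background. Orc1 went from 17.4 and 15.0 CPM to 11.7 and 10.7 and fell by 0.53 ± 0.114 (edgeR, adjusted p = 0.00104). Gins2 went from 36.2 and 38.1 CPM to 27.9 and 27.7, a fall of 0.42 ± 0.0807 (edgeR, adjusted p = 0.000428), and Gins1 from 31.4 and 28.2 to 22.7 and 23.1, a fall of 0.38 ± 0.0829 (edgeR, adjusted p = 0.00124). Orc3 rose from 35.7 and 37.7 to 44.1 and 44.4 CPM, by 0.27 ± 0.0703 (edgeR, adjusted p = 0.00436). Leaving out 1 library took the count of 4 to between 1 and 3: Orc3 was lost without any of the 4 and with DESeq2 (adjusted p = 0.0289), Orc1 without KO2 Ctrl replicate 1 (0.0244) or KO2 Myc replicate 2 (0.0176), and Gins1 without KO2 Ctrl replicate 1 (0.0282) or KO2 Myc replicate 1 (0.0111).

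**Figure D2:**
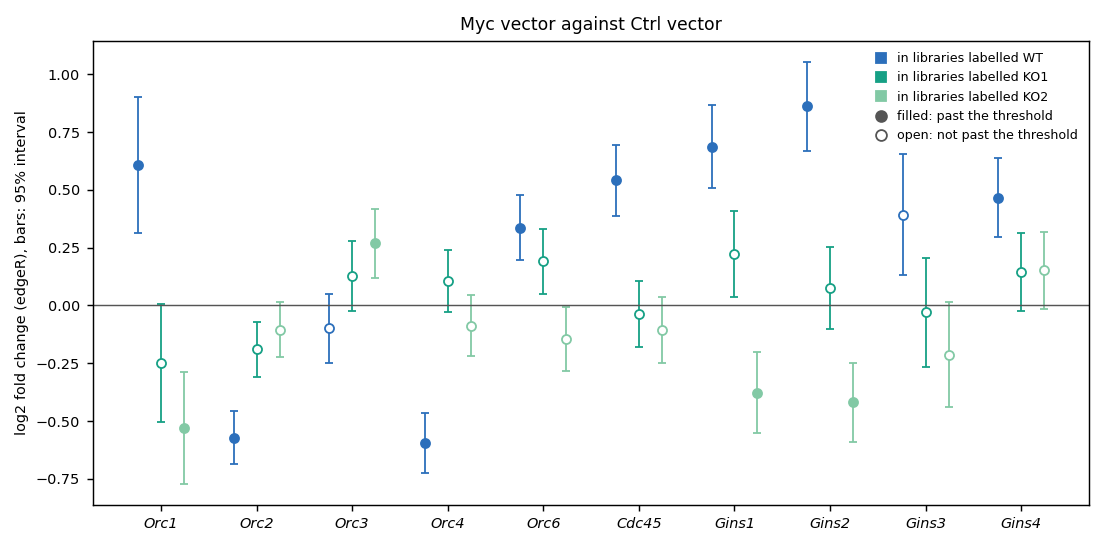
Log2 fold change of each gene between Myc and Ctrl vector (vertical axis, edgeR, 95% intervals, 2 libraries per group) in the libraries labelled WT, KO1 and KO2; filled points passed an adjusted p under 0.01. In WT 8 points are filled, in KO1 none and in KO2 4, and Orc1, Gins1 and Gins2 are filled above 0 in WT and below 0 in KO2.

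The difference between these responses was tested with an interaction term. The response in KO1 differed from that in WT for 6 members, 2 higher and 4 lower, where 37.3% of all genes were called (19.2% higher, 18.1% lower). The response in KO2 differed for 9 members, 3 higher and 6 lower, where 32.8% were (16.6% higher, 16.2% lower). Both terms contain the WT Ctrl and WT Myc libraries. Each term also equals the KO against WT difference with the Myc vector minus that with the Ctrl vector. It is therefore not independent of the knockout comparisons with the Ctrl vector. With the Ctrl vector, Myc mRNA was 186 and 196 CPM in KO1 and 210 and 219 in KO2, against 433 and 439 in WT. The responses therefore start from unlike Myc levels, and the part of this in the terms was not tested. For Gins2 the response was lower by 0.79 ± 0.124 in KO1 and by 1.28 ± 0.121 in KO2 (edgeR, adjusted p = 7.02e-05 and 3.96e-07), and for Cdc45 by 0.58 ± 0.0988 and 0.65 ± 0.0985 (edgeR, adjusted p = 0.000148 and 5.98e-05). For Orc4 it was higher by 0.70 ± 0.0877 and 0.51 ± 0.0873 (edgeR, adjusted p = 6.47e-06 and 0.000186), where Orc4 fell in WT and stood at 0.11 and −0.09 in the KO lines. Gins4 was the member called in neither term (−0.32 and −0.31, adjusted p = 0.0266 and 0.0313), but without WT Myc replicate 2 it was called in both (−0.42 and −0.41, adjusted p = 0.00178 and 0.00216).

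With the Myc vector in all lines, few members separated the libraries labelled KO from those labelled WT. In KO1 Myc, 1 of 10 was called, against 25.1% of all genes (12.6% higher, 12.5% lower), and in KO2 Myc 2 of 10, against 35.2%. Gins1 was lower in both, at 24.4 and 24 CPM in KO1 Myc and 22.7 and 23.1 in KO2 Myc, against 34.7 and 31.5 in WT Myc. The differences were −0.45 ± 0.0814 (edgeR, adjusted p = 0.000418) and −0.53 ± 0.0815 (edgeR, adjusted p = 6.05e-05), and the first was lost when the groups were fitted alone (adjusted p = 0.0132). Orc4 in KO2 Myc stood at −0.22 ± 0.0621 (edgeR, adjusted p = 0.00877), a call lost with DESeq2 (0.031), a mean of at least 5 CPM (0.0128), the groups alone (0.0687), and without WT Myc replicate 2 (0.0278), KO2 Myc replicate 1 (0.0412) or KO2 Myc replicate 2 (0.0447). Without WT Myc replicate 2, Gins4 became called in KO1 Myc (−0.35, edgeR, adjusted p = 0.000847) and in KO2 Myc (−0.26, adjusted p = 0.00798), and Orc6 in KO2 Myc (−0.25, adjusted p = 0.00563). Members that rose in both lines with the Ctrl vector were not called here: Orc1 stood at 0.09 and 0.17 and Cdc45 at 0.23 and 0.21. With a mean of at least 5 CPM, Cdc45 in KO1 Myc was called (0.25, edgeR, adjusted p = 0.00807). Trim33 mRNA in KO1 Myc was higher than in WT Myc (0.40 ± 0.0686, edgeR, adjusted p = 0.000243). This level cannot settle the genotype, so KO against WT in these libraries is a comparison of labels.

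Set side by side over the 12 libraries, the WT Ctrl pair stood apart from all the others. For 5 members both WT Ctrl libraries lay below all 10 other libraries (Orc1, Cdc45, Gins2, Gins3 and Gins4), and for Orc2 and Orc4 both lay above them. That is 7 of 10 members, where 37.1% of all genes had both WT Ctrl libraries outside the range of the others. Orc1 ranged from 8.98 to 17.4 CPM outside WT Ctrl, Cdc45 from 44.8 to 57.9, Orc2 from 92.1 to 107 and Orc4 from 54.7 to 69.9. Each comparison above that uses WT Ctrl rests on this pair.

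**Figure D3:**
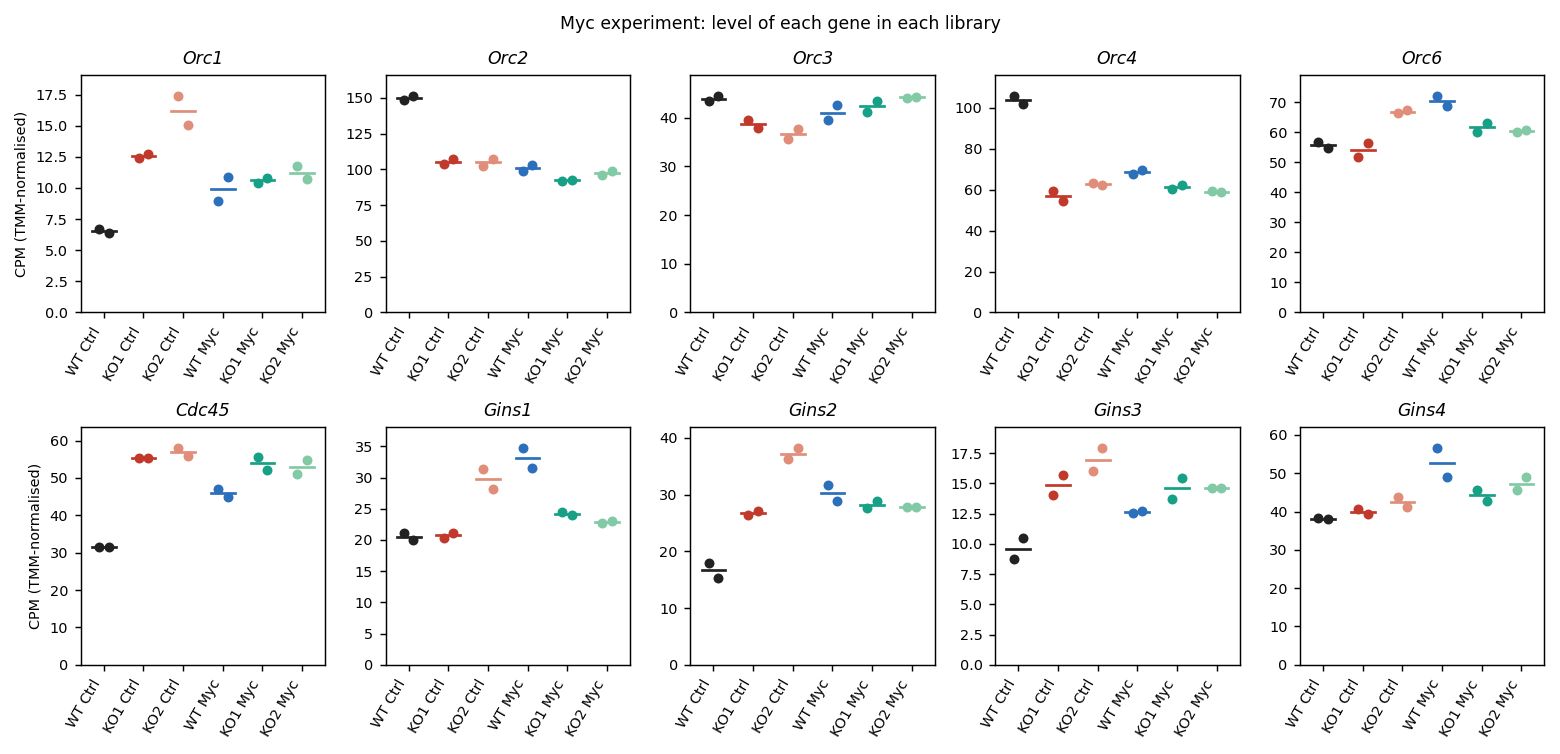
CPM (vertical axis, from 0) of each gene in the 12 libraries of the Myc experiment; points are libraries, short lines the mean of the 2 libraries of a group. WT Ctrl sits below all other libraries for Orc1, Cdc45, Gins2, Gins3 and Gins4 and above them for Orc2 and Orc4.

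In the HU experiment, at a lower depth, the knockout was compared again, with and without HU. By edgeR 0 of 10 members were called in untreated KO against untreated WT, where 5.58% of all genes were (3.07% higher, 2.52% lower), and 0 in HU-treated KO against HU-treated WT, where 6.04% were (3.27% higher, 2.77% lower). DESeq2 gave 0 in both, and 1 member, Orc1, was at an unadjusted p under 0.05 in each. Orc1 was 17.6 and 14.3 CPM in untreated WT and 26.8 and 23.7 in untreated KO, and under HU 17.2 and 14.9 in WT and 25.8 and 27.7 in KO. The 4 KO libraries lay above the 4 WT libraries, but the differences of 0.67 ± 0.291 (edgeR, adjusted p = 0.134) and 0.73 ± 0.282 (edgeR, adjusted p = 0.0818) did not pass. Their 95% intervals, 0.08 to 1.25 and 0.17 to 1.30, take in the KO1 value of the Myc experiment (0.95). The KO2 value (1.31) lies above both, but its own 95% interval, 1.03 to 1.58, overlaps them.

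The other members were not called either. Cdc45 stood at 0.23 (95% interval −0.15 to 0.61) untreated, Gins2 at 0.01 (−0.36 to 0.39), Gins3 at 0.16 (−0.37 to 0.68), Orc2 at −0.02 (−0.31 to 0.27) and Orc4 at 0.20 (−0.17 to 0.58). These intervals leave out the values of both KO lines of the Myc experiment for Cdc45 (0.81 and 0.85), Gins2 (0.69 and 1.16), Orc2 (−0.51 in both) and Orc4 (−0.87 and −0.73). For Gins3 the interval takes in the KO1 value of 0.63. The KO2 value of 0.82 lies above it, but the KO2 interval, 0.57 to 1.07, overlaps it. The summed cholangiocyte markers, lower in the KO lines above, were 155 to 201 CPM in untreated WT and 261 to 269 in untreated KO. Untreated KO replicates were far apart for Orc4, at 88.2 and 53.5 CPM, for Orc3, at 42.7 and 28.4, and for Gins4, at 32.1 and 49.1. The WT level itself differed between the experiments: Orc1 was 3.88 ± 0.565 CPM per kb in untreated WT (SD, n = 2) and 1.59 ± 0.0611 in WT Ctrl, and Gins2 14.6 ± 1.41 and 4.26 ± 0.452. These tables were made separately, so such differences between them were not tested.

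HU was then set against vehicle within each genotype, at an adjusted p under 0.05. In WT, 1 of 10 members was called, against 9.83% of all genes (6.39% higher, 3.44% lower), so this share is close to the background. The called member was Cdc45, at 58.3 and 40.6 CPM untreated and 79.2 and 68.6 with HU, a rise of 0.59 ± 0.183 (edgeR, adjusted p = 0.0267). The groups did not overlap, but the call was lost with DESeq2 (adjusted p = 0.121) and without WT untreated replicate 2 (0.436), WT HU replicate 1 (0.296) or WT HU replicate 2 (0.0597). In KO, 0 members were called by edgeR or DESeq2, against 6.45% of all genes (4.65% higher, 1.80% lower), and 1, Orc6, was at an unadjusted p under 0.05. Cdc45 in KO was 62.6 and 53.1 CPM untreated and 65.0 and 78.2 with HU (0.31, 95% interval −0.05 to 0.67).

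Orc6 was 80.1 and 102 CPM in untreated WT and 113 and 114 with HU (0.31 ± 0.148, edgeR, adjusted p = 0.201), and 81.3 and 102 in untreated KO and 114 and 128 with HU (0.39 ± 0.147, edgeR, adjusted p = 0.106). In each genotype the HU libraries lay above the untreated ones, and neither difference passed. Orc1 stood at 0.02 in WT and 0.08 in KO, Orc2 at −0.10 and −0.12 and Orc3 at −0.07 and −0.16, and the widest interval was that of Orc1 in WT, −0.59 to 0.62. The GINS subunits ranged from −0.04 (Gins1) to 0.46 (Gins3) in WT and from 0.17 (Gins2) to 0.45 (Gins1) in KO. The HU response did not differ detectably between the genotypes for any member: 0 of 10 were called by edgeR or DESeq2, 0 were at an unadjusted p under 0.05, and 0.0714% of all genes were called (0.0446% higher, 0.0268% lower).

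**Figure D4:**
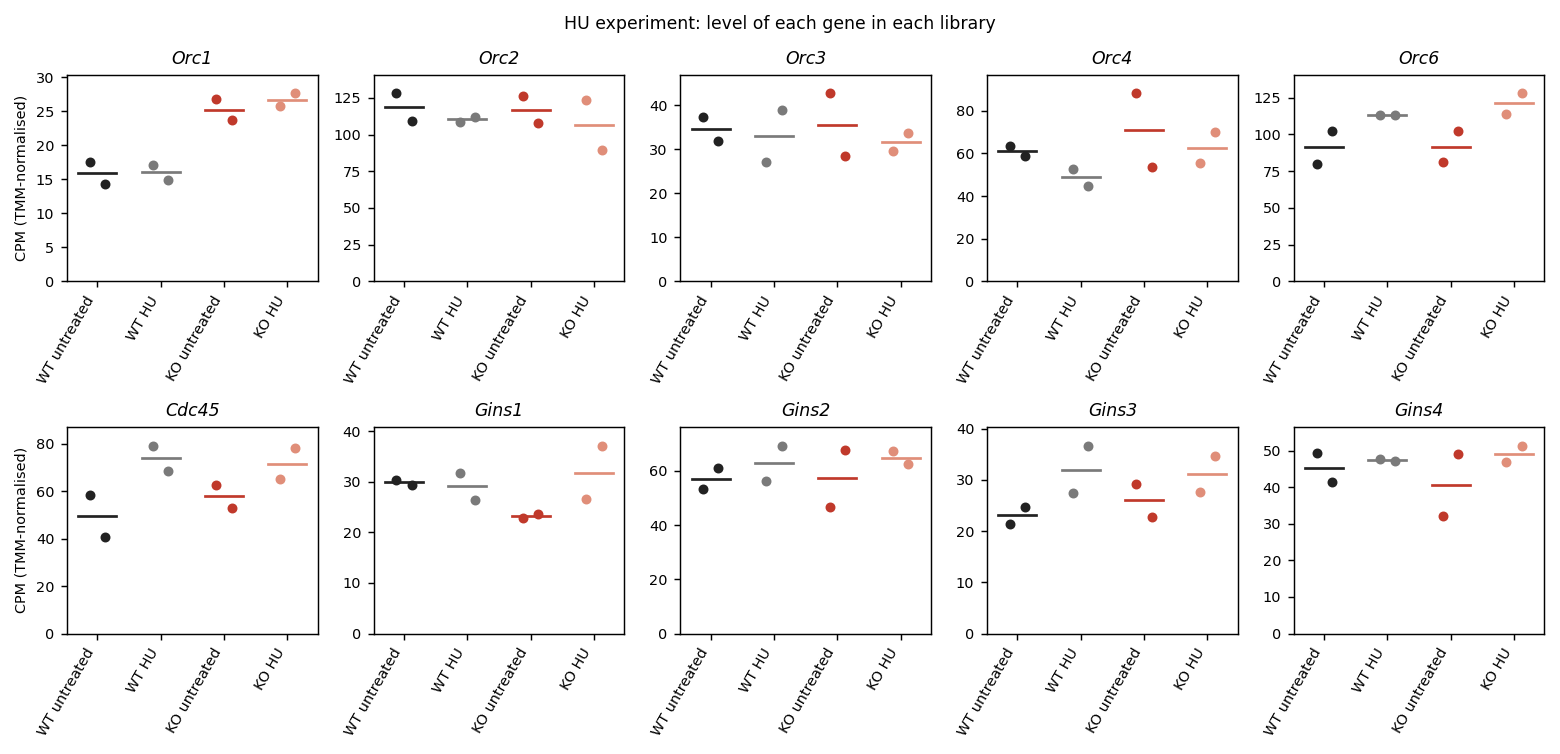
CPM (vertical axis, from 0) of each gene in the 8 libraries of the HU experiment; points are libraries, short lines the mean of the 2 libraries of a group. Orc1 is higher in the 4 KO libraries than in the 4 WT libraries, without passing the test, and Cdc45 is higher in HU-treated than in untreated WT.

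HU moved mitosis genes in the same libraries. Of 18 mitosis genes 12 fell in WT (median −0.54) and 10 in KO (median −0.42), with 0 higher in either. Of all genes 3.44% fell in WT and 1.80% in KO. Plk1, a mitotic kinase, fell by 1.28 in WT and by 1.39 in KO, and Cenpf, a kinetochore protein, by 1.23 and 1.01 (edgeR, adjusted p from 1.77e-12 to 1.26e-09). Of the 32 other origin and replisome genes, 1 rose in WT (Cdt1, the licensing factor, 0.45, edgeR, adjusted p = 0.036) and 2 in KO (Clspn and Cdk2). Of all genes 6.39% rose in WT and 4.65% in KO, so these counts do not stand out from the background. The medians of the list were 0.08 and 0.19. The medians over the members were 0.04 and 0.22, and those of all genes 0 and −0.0098.

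**Figure D5:**
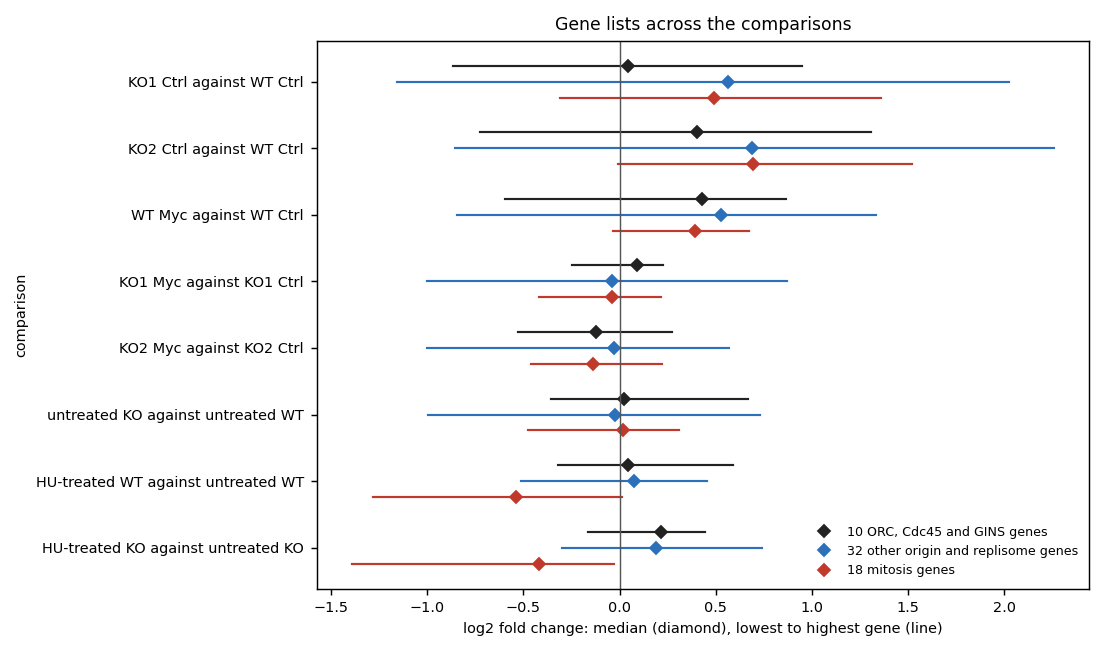
Median (diamond) and lowest to highest (line) log2 fold change (horizontal axis, edgeR) over the 10 members, 32 other origin and replisome genes and 18 mitosis genes in 8 comparisons. With the Ctrl vector the medians of the other lists lie above 0 in both KO lines, and under HU the mitosis median lies below 0 while those of the replication lists lie between 0.04 and 0.22.

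As a description of pattern, each member was matched to the gene, of 10429 with a mean of at least 5 CPM, whose log2 CPM followed it most closely over the 12 libraries of the Myc experiment. These libraries share groups and depth, so no p is given. Pearson's r was 0.988 for Orc1 with Gltp, 0.987 for Orc4 with Osbpl6, 0.985 for Cdc45 with Baiap2, 0.976 for Gins2 with the DNA ligase gene Lig1, and 0.979 for Gins1 and 0.949 for Orc6 with the same gene, Hat1, a histone acetyltransferase. Among the members themselves, Orc6 and Gins1 were the closest pair (0.947), and Orc4 and Cdc45 the most opposed (−0.966).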

How the data were processed

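RNA-seq of 12 libraries of the Myc experiment and 8 of the HU experiment was used. Per the labels, total RNA was extracted with TRIzol and libraries were made with a NEBNext Ultra II kit. The authors mapped reads to mm9 with STAR 2.5.4 and deposited counts, whole numbers per gene, in a table for each experiment. The counting tool, annotation and strand setting are not given in the sources used here. The authors named the counts of the Myc experiment as normalized, but they are whole numbers with differing library totals. They were treated as raw counts, and every test of the Myc experiment rests on that assumption. Of the HU counts, 71.9% of those from 1 to 50 are even, against 48.4% in the Myc experiment, so halved counts were an alternative. Tables of the authors' own tests (fold changes and p-values) were not used. Each experiment was fitted whole with edgeR 4.0.16 (quasi-likelihood, TMM scaling, R 4.3.3), tested on simulated data, with Benjamini-Hochberg adjustment over all 13107 or 11210 genes; the filter on low counts (filterByExpr) removed 0 genes. Thresholds were 0.01 for knockout and Myc comparisons and 0.05 for HU. Tests across all genes are two-sided; 2 against 2 libraries cannot give an exact permutation p below 0.333. Alternatives were DESeq2 1.42.0, RLE scaling, other filters and thresholds, the groups alone, a replicate block and leaving out each library. Groups came from the labels. All 10 members are described; of the other lists at most 3 genes with the lowest adjusted p in a comparison are named, with Trim33, Myc, E2f1, E2f4 and the gene nearest each member. Orc5 is named in addition. Members and lists were chosen with earlier results of these data known. Figures were drawn with matplotlib 3.10.9.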

Additional observations from a re-analysis of the deposited data

Results flagged for a closer look

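The knockout lines differed from each other with the Ctrl vector for 3 of 10 members, where 18.3% of all genes differed. All were higher in KO2: Orc6 by 0.31, Gins1 by 0.52 and Gins2 by 0.47 on the log2 scale (edgeR, adjusted p from 0.000212 to 0.00216). The Orc6 call depended on single libraries, as given above, with a difference of 0.24 to 0.37 when 1 was left out. Trim33 mRNA, 123 and 130 CPM in KO1 Ctrl against 201 and 207 in KO2 Ctrl, differed between the same libraries.

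The response to the Myc vector differed between lines by the interaction term. KO1 minus WT differed for 6 members, Orc1 by −0.86, Orc2 by 0.38, Orc4 by 0.70, Cdc45 by −0.58, Gins1 by −0.46 and Gins2 by −0.79 (edgeR, adjusted p from 6.47e-06 to 0.0048). KO2 minus WT differed for 9 members, Orc1 by −1.14, Orc2 by 0.47, Orc3 by 0.37, Orc4 by 0.51, Orc6 by −0.48, Cdc45 by −0.65, Gins1 by −1.06, Gins2 by −1.28 and Gins3 by −0.61 (edgeR, adjusted p from 3.96e-07 to 0.00658). Of all genes, 37.3% were called for KO1 minus WT and 32.8% for KO2 minus WT. In KO1 the call of Gins1 was lost with DESeq2 (adjusted p = 0.0235) and in 7 of the 8 fits that left out 1 library, and in KO2 that of Orc3 was lost with DESeq2 (0.0302), with the groups alone (0.0152) and in 7 of 8 such fits, and that of Gins3 with DESeq2 (0.0229) and in 4 of 8. Trim33 mRNA in the libraries labelled KO1 Myc and Myc mRNA in those labelled WT Myc do not follow the labels. With the Ctrl vector, Myc mRNA was lower than in WT by 1.19 in KO1 and by 1.02 in KO2. Whether either point moves these terms was not tested. With 2 libraries per group, which library of a pair stands apart cannot be told.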

How the results depend on the processing

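Of 600 values of called members recomputed under the alternatives, 544 stayed called in the same direction, 56 were no longer called and 0 changed sign. Of 1220 values of members that were not called, 27 became called and 74 changed sign.

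Counts of called members changed by more than 1.5 times in 5 comparisons, and the cause was not tested where it is not given by the alternative itself. For KO1 Myc against KO1 Ctrl the count of 0 became 3 at the threshold of 0.05 and 1 under RLE scaling, a mean of at least 5 CPM, the replicate block or the groups alone. For KO1 Myc against WT Myc the count of 1 became 5 at 0.05, 2 with a mean of at least 5 CPM and 0 with the groups alone. For KO2 Myc against WT Myc the count of 2 became 4 at 0.05, and 1 with a mean of at least 5 CPM, with DESeq2 and with the groups alone. For HU-treated WT against untreated WT the count of 1 became 0 at 0.01 and with DESeq2. Leaving out each library gave 1 to 3 for KO2 Myc against KO2 Ctrl, 1 to 2 for KO1 Myc against WT Myc, 1 to 3 for KO2 Myc against WT Myc and 0 to 1 for HU-treated WT against untreated WT, where the libraries are named beside the results. In the comparisons with WT Ctrl it gave 6 to 6 in KO1, 7 to 8 in KO2 and 7 to 8 in WT Myc.

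Replicate numbers showed no common pairing of the samples: the deviations of same-numbered libraries had correlations between −0.232 and 0.313 (Myc experiment) or between −0.023 and 0.0993 (HU experiment). The extremes were WT Myc with KO2 Myc (−0.232) and WT Myc with KO1 Myc (0.313). Whether some libraries share a batch was not tested. With the replicate block, Gins3 in WT Myc against WT Ctrl (0.39, adjusted p = 0.00674) and Orc2 in KO1 Myc against KO1 Ctrl (−0.19, adjusted p = 0.00718) became called, and no other member's call changed.

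Differences that were not called changed sign for Orc2 in KO2 Ctrl against KO1 Ctrl (0.0033 under RLE scaling, 0.0033 with DESeq2 and 0.0040 with the groups alone) and for Orc6 in untreated KO against untreated WT (−0.0034 with halved counts). Leaving out a library changed the sign of 41 uncalled differences, these among them. In KO1 Ctrl against WT Ctrl the ranges were Orc6 −0.11 to 0.021 and Gins1 −0.022 to 0.049. In KO2 Ctrl against KO1 Ctrl the range was Orc2 −0.041 to 0.028. In KO1 Myc against KO1 Ctrl the ranges were Cdc45 −0.065 to 0.0091 and Gins3 −0.12 to 0.075. In KO1 Myc against WT Myc the ranges were Orc1 −0.038 to 0.24 and Orc3 −0.0097 to 0.11. In untreated KO against untreated WT the ranges were Orc2 −0.15 to 0.10, Orc3 −0.30 to 0.31, Orc4 −0.20 to 0.54, Orc6 −0.17 to 0.19, Cdc45 −0.022 to 0.50, Gins2 −0.28 to 0.23, Gins3 −0.042 to 0.34 and Gins4 −0.49 to 0.11. In HU-treated KO against HU-treated WT the ranges were Orc2 −0.30 to 0.17, Orc3 −0.30 to 0.22, Cdc45 −0.19 to 0.081, Gins1 −0.13 to 0.35, Gins2 −0.10 to 0.20, Gins3 −0.24 to 0.18 and Gins4 −0.012 to 0.12. In HU-treated WT against untreated WT the ranges were Orc1 −0.14 to 0.16, Orc2 −0.23 to 0.0069, Orc3 −0.35 to 0.17, Gins1 −0.18 to 0.092, Gins2 −0.020 to 0.28 and Gins4 −0.070 to 0.19. In HU-treated KO against untreated KO the ranges were Orc1 −0.015 to 0.18, Orc2 −0.38 to 0.084, Orc3 −0.44 to 0.16, Orc4 −0.50 to 0.24 and Gins2 −0.056 to 0.46. For the HU response in KO minus that in WT the ranges were Orc1 −0.075 to 0.23, Orc2 −0.28 to 0.19, Orc3 −0.36 to 0.25, Orc4 −0.17 to 0.57, Orc6 −0.094 to 0.27, Gins2 −0.18 to 0.34, Gins3 −0.40 to 0.026 and Gins4 −0.047 to 0.55.

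In the 8 less deeply sequenced libraries of the HU experiment the 95% intervals of the members reach 0.29 to 0.60 to each side in the 4 comparisons between groups, against 0.12 to 0.29 in the Myc experiment.

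Counts over all genes moved by more than 1.5 times as follows. KO2 Ctrl against KO1 Ctrl went from 2398 to 3748 at the threshold of 0.05 and 4029 with the groups alone, KO1 Myc against WT Myc from 3291 to 4999 and 1541, and KO2 Myc against WT Myc from 4614 to 2775 with the groups alone. Untreated KO against untreated WT went from 626 to 1349 at 0.05 and 396 with DESeq2, and HU-treated KO against HU-treated WT from 677 to 1233, 402 and, with the groups alone, 1099. HU against untreated went from 1102 to 655 at 0.01 and 717 with DESeq2 in WT, from 723 to 427 and 451 in KO, and the difference of the responses from 8 to 2 and 5. Leaving out 1 library gave 1383 to 1475 for KO2 Ctrl against KO1 Ctrl (each of the 4 libraries), 1906 for KO1 Myc against WT Myc (KO1 Myc replicate 2), 337 for untreated KO against untreated WT (KO untreated replicate 2) and 248 to 296 for HU-treated KO against HU-treated WT (each of the 4). For HU against untreated it gave 553 and 580 in WT (WT HU replicates 1 and 2) and 389 and 469 in KO (KO HU replicates 1 and 2), and for the difference of the responses between 0 (without WT HU replicate 1 or 2) and 20 (without WT untreated replicate 1).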
